A study of Linum usitatissimum with 4 samples.

Results

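The comparison of 5-azacytidine plus heat with the untreated control was described from every row of its 3 tables of single cytosines, 1 table for each sequence context. These rows number 1144 of the 1894 listings in the series, against 566 for 5-azacytidine alone and 184 for heat alone. The material was flax (Linum usitatissimum, variety JRF-2), and DNA methylation was read by whole-genome bisulfite sequencing, which converts unmethylated cytosines and leaves methylated ones. In the group with both treatments, seeds lay in 1 mM 5-azacytidine for 24 h in the dark at 20 °C. Its seedlings, 21 days after sowing, were held at 40 ± 2 °C and 70% relative humidity for 4 h on each of 5 days and then returned to 22 ± 2 °C. The control group had neither the soak nor the heat and stayed at 22 ± 2 °C. All groups shared the light cycle of 16 h light and 8 h dark. Each group was 1 library made from the pooled shoot apices of 10 seedlings and read in pairs of 150 bp. The labels do not say how long after the last heat exposure the apices were cut. With 1 library a group, no test over plants can be made. Intervals given for shares are exact 95% binomial intervals (Clopper-Pearson) that cover counting error over listed sites only.

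Plant DNA carries methyl groups on cytosines in 3 contexts, CG, CHG and CHH, where H stands for A, C or T. CG methylation is copied at replication by MET1, CHG methylation is kept largely by CMT3 together with methylation of histone H3, and CHH methylation is laid down anew by RNA-directed DNA methylation and by CMT2, as known from Arabidopsis. 5-Azacytidine is a cytidine analogue that traps DNA methyltransferases once built into DNA, so that methylation is diluted as cells divide. These are background facts and were not measured in these libraries.

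Methylation was lower than in the control at nearly all listed cytosines, and nearly all of them were CHH sites. Of the 1144 sites, 1090 were lower in 5-azacytidine plus heat, which is 95.3% of the list, and 54 were higher. The CHH table held 1018 sites, or 89.0% of the listings (87.0 to 90.7%), and 97.6% of them were lower. The CG table held 101 sites, of which 79, or 78.2%, were lower and 22 were higher. The CHG table held 25 sites, of which 17, or 68.0%, were lower and 8 were higher. The share of sites with a gain was 2.36% in CHH (1.52 to 3.49%), 21.8% in CG (14.2 to 31.1%) and 32.0% in CHG (14.9 to 53.5%). Among sites with a q-value below 0.001, gains were 5.26% of 76 CHH sites and 41.9% of 31 CG sites. For 5-azacytidine alone the lower share was 90.8% over all contexts, with 79.7% in CG, 80.9% in CHG and 93.4% in CHH. For heat alone it was 78.8%, with 60.4% in CG, 46.2% in CHG and 89.4% in CHH. All 3 comparisons use the same control library, so these shares stand side by side and are not independent.

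The differences were mostly small. A difference is given in percentage points of methylation, 5-azacytidine plus heat minus control. The median absolute difference was 9.40 points in CHH, 13.8 points in CG and 13.2 points in CHG. In all, 604 of the 1144 sites differed by less than 10 points, and the smallest absolute difference was 5.01 points. The 54 sites with a gain had a median of 18.1 points, and the 1090 sites with a loss had a median of -9.53 points. The q-value, the authors' p-value adjusted for many tests, was below 0.001 at 112 sites, of which 76 were CHH, 31 CG and 5 CHG.

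**Figure D1:**
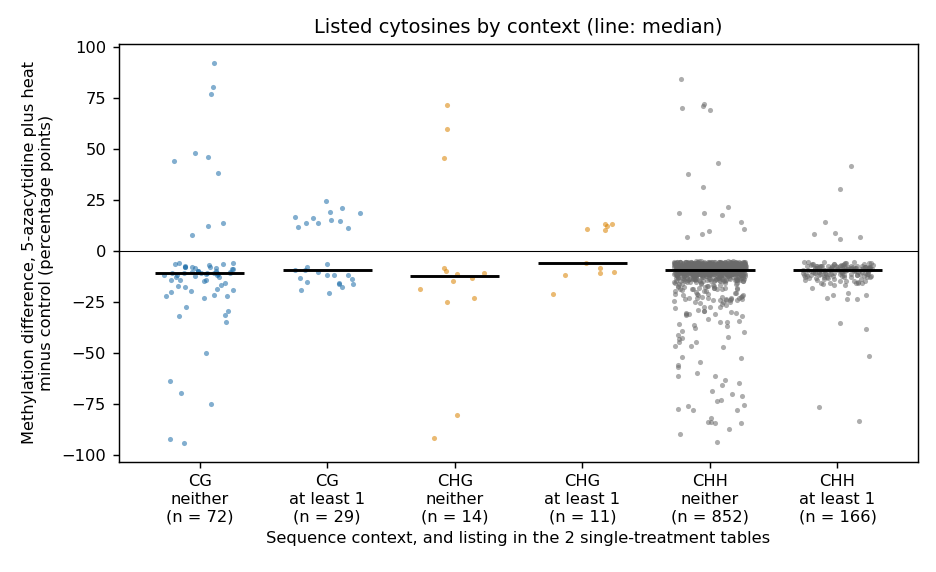
Methylation difference in percentage points (vertical axis, 5-azacytidine plus heat minus control) of each listed cytosine, by context and by whether the cytosine is in neither or in at least 1 of the single-treatment tables. Each point is 1 cytosine and the black line is the median. The 852 CHH sites listed in neither single-treatment table form a dense band below 0, with 835 losses, and 17 gains lie above 0.

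Large differences were scattered, and differences below 20 points were more often grouped. Only 1 of the 65 sites with an absolute difference of 40 points or more lay in a run, a run being 3 or more listed sites of any context with each at most 100 bp from the next. Their median distance to the nearest other listed site was 227348 bp, and 8 of the 65 had another listed site within 1000 bp. Among the 604 sites under 10 points, the median distance was 72 bp and 207 sites (34.3%) lay in runs, beside 31.9% over all sites. At 10 to 20 points the median distance was 59 bp and 37.5% of sites lay in runs. At 20 to 40 points these values were 760 bp and 13.6%. Low q-values, below 0.001, were most frequent at 10 to 20 points (20.2%). They were about as rare at 40 points or more (3.08%) as below 10 points (3.81%). The median q-value was 0.0289 at 40 points or more, 0.0199 at 20 to 40 points, 0.0110 at 10 to 20 points and 0.0226 below 10 points. A q-value below 0.001 was found for 2 of the 65 sites at 40 points or more, 9 of the 88 sites at 20 to 40 points, 78 of the 387 sites at 10 to 20 points, and 23 of the 604 sites below 10 points. Read coverage of these sites was not analysed here, and its part in this pattern was not tested. Gains made up 16 of the 65 largest differences and 8 of the 604 smallest.

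**Figure D2:**
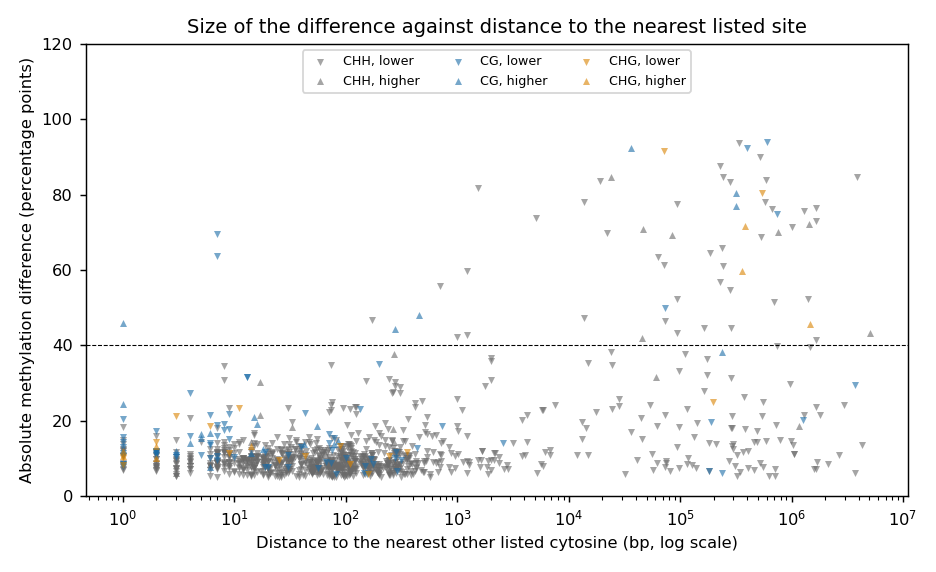
Absolute methylation difference in percentage points (vertical axis) of each listed cytosine against its distance in bp to the nearest other listed cytosine (horizontal axis, log scale). Colours give the context and the triangles point down for losses and up for gains. The dashed line marks 40 points, and 57 of the 65 sites at or above it have no other listed site within 1000 bp.

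The sites lay on all 15 chromosomes, Lu1 to Lu15. Counts ran from 17 sites on Lu12 to 140 on Lu3, with a median of 76. Per Mb between the first and the last listed site, Lu15 held 8.21 sites, Lu3 held 6.12 and Lu13 held 5.96, against 0.83 on Lu12. All 17 sites of Lu12 were CHH losses with a median of -21.6 points, and none lay in a run. Of the 17, 16 were in neither single-treatment table. Over all CHH sites, 97.6% were losses and 83.7% were in neither table. Lu14 held 10 of the 54 gains, more than any other chromosome, and the lowest share of sites in neither single-treatment table, 66.7%. Near the end of Lu1, between positions 668 and 1470, 5 CHH losses were listed, with differences of -8.12 to -18.1 points in the authors' deposited table. Their nearest gene start, 19934 to 20736 bp away, belongs to Lus10036171, a member of the Tousled-like kinase family, whose kinases act on chromatin assembly factors during replication.

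Runs held 365 of the 1144 sites, or 31.9% (29.2 to 34.7%), in 87 runs. The share depends on the definition. It was 18.0% with gaps up to 50 bp, 54.9% with gaps up to 300 bp and 12.3% for runs of at least 5 sites. When runs were formed again from only the 540 sites that differ by at least 10 points, it was 14.6%. Those sites are fewer, so the gaps between them are wider by construction. Losses alone made up 74 of the runs, 13 runs mixed losses with gains, and 0 runs held gains alone. With losses at 95.3% of all listed sites, runs of losses alone are no finding in themselves. Runs took in 55 of the 101 CG sites, 13 of the 25 CHG sites and 297 of the 1018 CHH sites. The runs were short, with a median length of 96 bp and a longest of 267 bp, and 62 of the 87 held CHH sites only. The 13 mixed runs held 26 of the 54 gains. Within them, CG sites were split into 14 gains and 13 losses and CHG sites into 5 gains and 4 losses, while CHH sites had 7 gains and 32 losses. Mixed runs hold a gain by definition, so their share of gains is raised by the selection. Over all runs, 14 of the 55 CG sites were gains. Over all listed sites, gains were 21.8% in CG, 32.0% in CHG and 2.36% in CHH.

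The largest run lay on Lu14 between 8137541 and 8137699, where 23 cytosines were listed in 158 bp, 12 of them CG, 6 CHG and 5 CHH. Its sites with a deposited distance lie 550 to 666 bp upstream of the starts of Lus10002716, which has no family description in the files, and Lus10002717, a serine/threonine protein kinase. The smallest q-value of the whole comparison was found here, 2.72e-23 for the CG at 8137658, with a difference of -20.4 points in the authors' deposited table. Close by, the CG at 8137673 was 15.3 points higher in 5-azacytidine plus heat, per the authors' deposited table. In the same stretch the CHG at 8137629 was higher by 12.1 points and the CHH next to it at 8137630 was lower, at -18.3 points, both from the authors' deposited table. The run thus held 17 losses and 6 gains. Of its 23 sites, 10 were in neither single-treatment table, beside 82.0% over all listed sites.

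The second run was of another kind. On Lu2, 12 CG cytosines between 18886023 and 18886103 were all lower, with differences between -7.64 and -11.8 points in the authors' deposited table. None of the 12 was in a single-treatment table, their q-values lay between 0.00605 and 0.0476, and no gene could be assigned to them. The share in neither table was 71.3% over all CG sites and 82.0% over all contexts. Some of the 12 lie 1 bp apart, as the strands of a CG would. A smaller run of the same chromosome, at 19049404 to 19049451, held 3 CG, 1 CHG and 1 CHH loss. Its 5 differences, per the authors' deposited tables, ran from -17.5 to -27.4 points, and all 5 sites were likewise in neither single-treatment table. Its CHG and CHH sites lie 1041 and 1069 bp upstream of Lus10021831, for which the files give no description.

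On Lu3, 10 cytosines between 21109154 and 21109415 lay 3075 to 3336 bp upstream of Lus10007390, a gene of the bifunctional nuclease 1-related family. Both CG sites of this run were higher, by 16.7 points at 21109265 and 14.0 points at 21109271, in the authors' deposited table. Of its 8 CHH sites 7 were lower, and the lowest stood at -15.7 points in the authors' deposited table. A similar split was seen on Lu7 between 12209891 and 12209912, where 6 cytosines fell within 21 bp. There the CG and both CHG sites were higher, by 16.4, 13.3 and 10.7 points, and the 3 CHH sites were lower, at -11.3, -12.5 and -14.3 points, all in the authors' deposited tables. The gene start, 1133 to 1154 bp away, belongs to a gene that the files name in more than 1 way, and it is given here by position only.

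The other runs among the 10 with the most sites were losses, apart from 1 CHH gain on Lu5. The 6 runs ranked from the sixth to the eleventh all held 6 sites. The eleventh, on Lu15 between 11078318 and 11078492, held 1 CG and 5 CHH losses near Lus10013093. All its sites were in neither single-treatment table, as were 82.0% of all listed sites. Also on Lu15, 8 sites between 6698590 and 6698743 sat 88 to 241 bp downstream of the start of Lus10007146, with 3 CG losses of -11.8 to -13.1 points and 5 CHH losses of -6.98 to -9.52 points in the authors' deposited tables. On Lu9, 7 CHH losses of -5.05 to -11.2 points in the authors' deposited table lay 1735 to 1952 bp downstream of the start of Lus10003218, a lipoate-protein ligase, an enzyme that joins the cofactor lipoate to proteins. On Lu8, 6 CHH losses, listed at -6.73 to -11.0 points by the authors' deposited table, lay 5128 to 5279 bp downstream of the start of Lus10008540, a protein kinase, and all 6 were in neither single-treatment table. On Lu3, 6 CHH losses of -6.72 to -11.1 points in the authors' deposited table lay 16555 to 16734 bp from Lus10001964, an IMP dehydrogenase, which makes a guanine nucleotide precursor. On Lu2, 6 CHH losses of -5.25 to -14.8 points in the authors' deposited table lay 23243 to 23404 bp upstream of Lus10017933. The run on Lu5, 12302 to 12475 bp upstream of Lus10008763, a mitochondrial polyribonucleotide nucleotidyltransferase that trims RNA, held 5 CHH losses and 1 CHH gain of 9.64 points in the authors' deposited table.

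**Figure D3:**
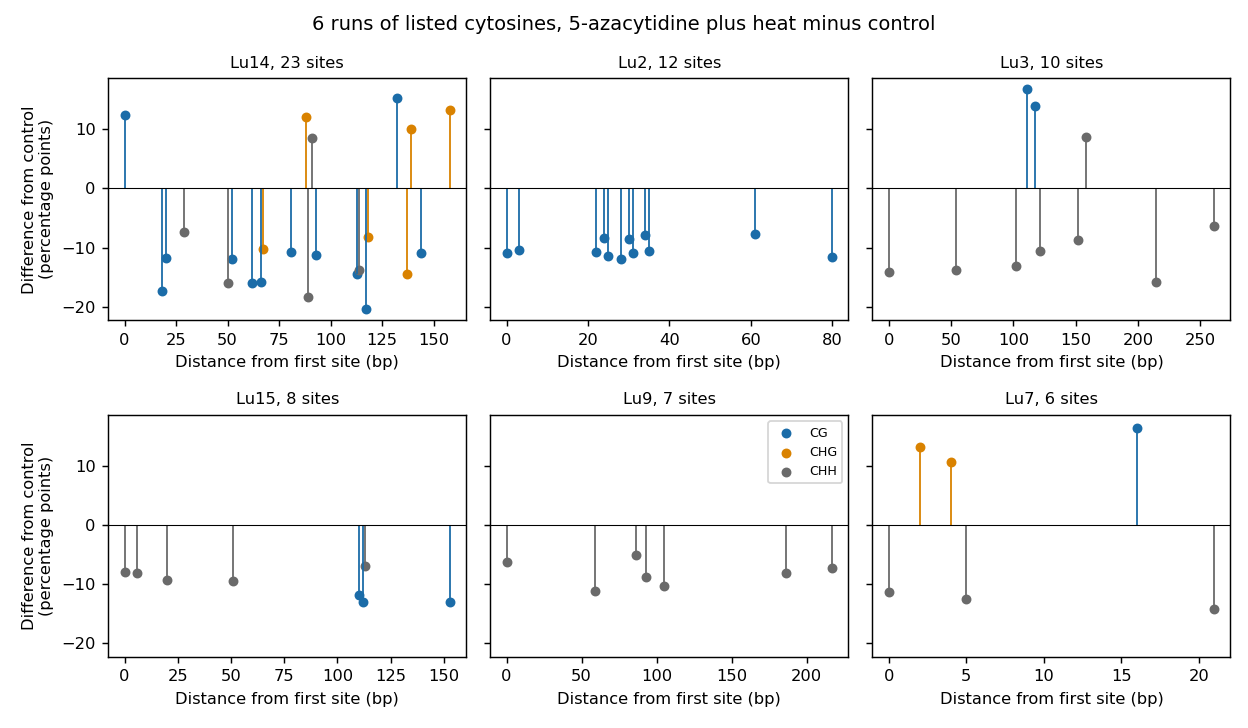
Methylation difference in percentage points (vertical axis, 5-azacytidine plus heat minus control) against the distance in bp from the first site of the run (horizontal axis) for 6 of the 10 runs with the most sites, named by chromosome. Each stem is 1 cytosine, coloured by context. The Lu14, Lu3 and Lu7 runs hold both gains and losses, and the Lu2, Lu15 and Lu9 runs hold losses only.

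Of 409 neighbouring pairs at most 100 bp apart, 35 had opposite directions (8.56%), and of the 105 pairs at most 10 bp apart, 17 did (16.2%). Since 95.3% of all listed sites were losses, a shared direction of neighbours is no finding in itself. These 17 close pairs lie on 6 chromosomes, and 8 of them belong to the Lu14 region around 8137087 to 8137685. CG cytosines 1 bp apart, as on facing strands, were both listed at 4 places, with the same direction at all 4. Apart from the pair on Lu15 at 10756361 and 10756362, these lie in the second run, on Lu2. That run held losses only, so the shared direction there is no separate finding. CHG cytosines 2 bp apart, as on facing strands, were both listed at 2 places, with the same direction at 1. These pairs were matched by position alone, without strand or sequence, so that they face each other was not checked.

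Nearest genes could be given for 1103 sites, which fall to 302 genes; 41 CG sites have none. Methylation was lower at all sites of 270 genes, higher at the listed sites of 11 genes and mixed at 21 genes. A single site was listed for 138 genes, and 25 genes had 10 or more. The 10 genes with the most sites took 248 of the 1103 sites, or 22.5%.

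Neighbouring genes Lus10024540 and Lus10024541 on Lu13, neither with a description in the files, had 35 and 27 sites. The 35 sites of Lus10024540 lay 10542 to 29276 bp upstream and had a median of -8.05 points, with 33 losses and 2 gains. The 27 sites of Lus10024541 lay 1052 to 32391 bp upstream, with 23 losses and 4 gains. On Lu5, Lus10006013 had 33 sites 14783 to 26747 bp downstream of its start, all losses, with a median of -8.06 points. Lus10009768 on Lu13, a protein with a domain of unknown function (DUF4370), had 27 sites 10791 to 35634 bp upstream, of which 26 were losses. The lowest of them was a CHH at -83.8 points in the authors' deposited table, 10791 bp upstream, beside a median of -9.19 points for the gene.

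Lus10002716 on Lu14, the gene of the largest run, differed from these in place and make-up. Its 25 sites lay within 1603 bp, from 662 bp upstream to 942 bp downstream of the start, and 13 of them were CG, with 20 losses and 5 gains. Lus10013093 on Lu15 had 24 losses and no gain, 2127 to 9333 bp downstream. Of the 24, 23 were in neither single-treatment table, beside 82.0% over all listed sites. Lus10019378 on Lu3 had 24 sites 23298 to 38838 bp upstream, 22 of them losses. Among these was the CHH gain with the smallest q-value of its context, 7.65e-14, with 14.3 points at 9551078, and close to it a CHH loss of -14.9 points at 9551114, both from the authors' deposited table. Lus10002410 on Lu2 encodes a soluble NSF attachment protein, which helps take apart SNARE complexes after membrane fusion, and had 19 sites 6691 to 11700 bp upstream, 18 of them losses. Lus10017173 on Lu3, of the ST5 family, had 17 CHH losses 7454 to 9504 bp downstream, and Lus10024969 on Lu11 had 17 losses 39057 to 61137 bp upstream.

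**Figure D4:**
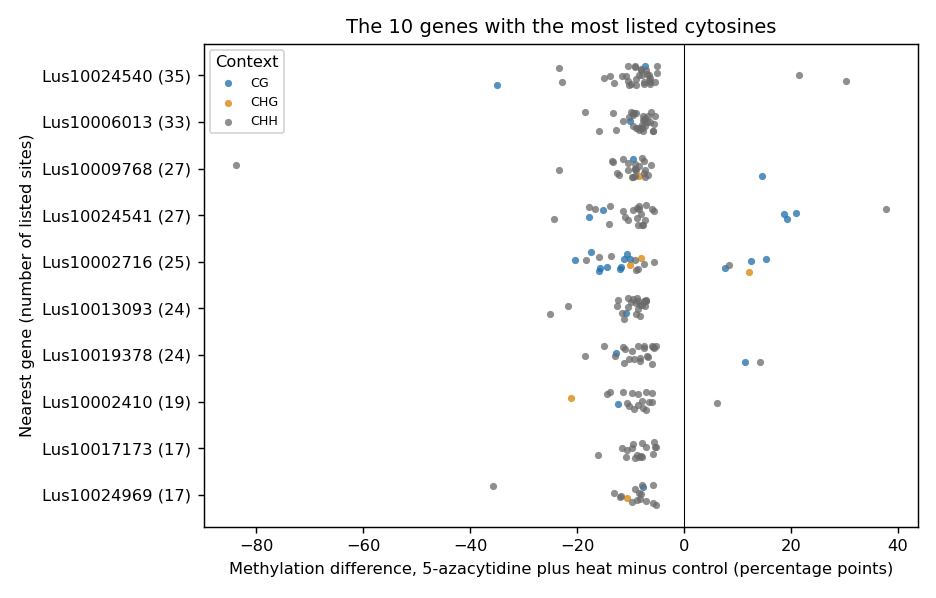
Methylation difference in percentage points (horizontal axis, 5-azacytidine plus heat minus control) of every listed cytosine assigned to each of the 10 genes with the most sites (rows, number of sites in brackets). Each point is 1 cytosine, coloured by context, with vertical scatter only to separate points. Of the 248 points, 209 lie between -15 and -5 points, and gains are seen at 6 of the 10 genes.

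The distance to the nearest gene start was deposited for 1072 sites, with negative values read as upstream. Within 2 kb of a start lay 205 sites, or 19.1% (16.8 to 21.6%), at 83 genes, and over 10 kb away lay 422 sites, or 39.4%. Upstream sites numbered 629 and downstream sites 443. Within 2 kb, the 64 downstream sites were all losses and the 141 upstream sites held 128 losses and 13 gains, beside 95.3% losses over all listed sites. In CHH alone, losses were 61 of 61 sites downstream and 115 of 119 upstream, beside 97.6% over all CHH sites. The other upstream gains, 4 CG and 5 CHG sites, lie at the Lu14, Lu7 and Lu13 loci described above. A CG site has a distance only where another table lists the same cytosine, so shares absent from both single-treatment tables are given by distance for CHH alone. In CHH, 73.9% of the 119 sites within 2 kb upstream were absent from both, against 85.4% of the 239 sites over 10 kb upstream. Downstream, the shares were 83.6% of the 61 sites within 2 kb and 88.2% of the 170 sites over 10 kb. Within 500 bp of a start there were 30 sites at 12 genes, of which 29 were losses. The exception was the CHH at 15039917 on Lu5, 458 bp upstream of Lus10028354, a PMT27-related methyltransferase, which was 72.1 points higher in the authors' deposited table. Of the losses in that window, the greatest was a CHH 491 bp upstream of Lus10009625 on Lu10, of the DVL family of small signalling peptides, at -43.2 points in the authors' deposited table.

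Several described genes carried groups of losses close to their start. Lus10007031 on Lu8, the copper chaperone that loads superoxide dismutase, had 7 CHH losses 786 to 1438 bp upstream, of -6.70 to -10.2 points in the authors' deposited table. Lus10015447 on Lu7, of the LTV1-related family that acts in building the small ribosomal subunit in yeast, had 7 CHH losses 1079 to 1887 bp downstream, of -5.62 to -12.2 points in the authors' deposited table. A gene of the GDXG family of lipolytic enzymes on Lu3 had 5 CHH losses 1669 to 1790 bp upstream, of -8.09 to -11.7 points in the authors' deposited table. Lus10025047 on Lu6, with pentatricopeptide repeats as found in RNA-binding proteins of organelles, had 4 CHH losses 1291 to 1744 bp upstream. The greatest of those stood at -15.9 points in the authors' deposited table, and this cytosine, at 14357199, was listed in all 3 comparisons.

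Of the cytosines listed for the combined treatment, 938 of 1144 were in the list of neither treatment alone, or 82.0% (79.6 to 84.2%). Among the 112 sites with a q-value below 0.001 the share was 46.4%. The lists of the treatments alone held 566 sites for 5-azacytidine and 184 for heat. Together they are shorter than the combined list, so part of the 82.0% follows from list size. The 938 sites were made up of 852 CHH, 72 CG and 14 CHG sites. Of these 938, 908 were losses and 30 gains. The other 206 sites divide into 118 also listed for 5-azacytidine only, 58 also listed for heat only and 30 listed in all 3. Gains were 0 of the 118 sites shared with 5-azacytidine alone, 17 of the 58 shared with heat alone and 7 of the 30 in all 3. A cytosine can be absent because it did not pass the authors' limits or because it was not tested in that comparison, and the tables do not tell these apart. The median q-value was 0.0215 for the 938 sites and 0.00677 for the 206, so sites in the combined list alone stood nearer the limit. The largest p-value that was listed in CHH was 9.19e-05 for the combined treatment, against 4.22e-05 for 5-azacytidine and 1.01e-05 for heat. When each context was held to the largest p-value of the heat table, 480 sites of the combined treatment remained, 448 of them losses, against 331 for 5-azacytidine and 184 for heat, and the share absent from both was 72.3%.

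The extremes among sites absent from both lists were single cytosines. In CG, the lowest were -94.1 points at 15503993 on Lu13 and -92.3 points at 18868674 on Lu4, and the highest were 92.3 points at 5038747 on Lu13 and 80.6 points at 4212295 on Lu8, in the authors' deposited table. No gene could be given for these 4 sites. A pair of CG sites 7 bp apart on Lu1, at 19211725 and 19211732, stood at -63.6 and -69.6 points in the authors' deposited table. On Lu15 the CG at 10756361, near Lus10041426 of a protein kinase family, was higher by 46.1 points in the authors' deposited table. Its q-value was 1.34e-06, and it is the site over 40 points that lies in a run. The CG cytosine 1 bp away, at 10756362, was higher by 24.4 points in the combined treatment, per the authors' deposited table. That neighbouring cytosine was also listed for heat alone, at 23.9 points. If both are the facing strands of a CG, a gain at this CG was not listed for the combined treatment only.

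In CHG, the lowest was -91.7 points at 13079285 on Lu6, near Lus10013882, a heat shock protein 70 gene whose start lies 1257 bp away, in the authors' deposited table. The highest was 71.6 points at 14089635 on Lu10, 3471 bp downstream of the start of Lus10042787, an alcohol dehydrogenase of class P, in the authors' deposited table. The other CHG gains absent from both lists were 59.9 points near Lus10009178 on Lu3 and 45.7 points 7162 bp upstream of Lus10012938, a MAP kinase kinase 6, on Lu11, in the authors' deposited table. In CHH, the lowest was -93.8 points at 9865144 on Lu9, 11532 bp downstream of the start of Lus10008393, the bromodomain protein GTE1, in the authors' deposited table. Next came Lus10036283 on Lu6 with -90.0 points and Lus10006941 on Lu14, a VQ-motif protein, with -87.5 points at 5644 bp upstream, per the authors' deposited table. The highest CHH values were 84.6 points 17387 bp upstream of Lus10021761 on Lu9, the 72.1 points near the PMT27-related gene, 71.0 points near Lus10030332 on Lu4, and 70.1 points 2159 bp upstream of Lus10024456 on Lu7, in the authors' deposited table. Lus10024456 belongs to the family of MAD1, a protein of the mitotic spindle checkpoint. The q-values of these CHG and CHH sites ran from 0.00219 to 0.0473.

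Of the 302 genes, 140 had no site in either single-treatment table, with 204 sites between them. Lus10019386 on Lu3, an indole-3-acetaldehyde oxidase, an enzyme family linked to auxin synthesis, was among those with the most. Its 6 CHH losses lay 6116 to 6461 bp upstream and ran from -9.00 to -13.9 points in the authors' deposited table. Lus10005821 on Lu2 also had 6 CHH losses, and the Tousled-like kinase gene at the end of Lu1 had 5. Lus10012675 on Lu11, an 8'-hydroxylase that starts the breakdown of abscisic acid, had 3 CHH losses 5122 to 15087 bp downstream, at -14.4, -21.6 and -22.8 points in the authors' deposited table.

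The 30 cytosines listed in all 3 comparisons had the same sign in all 3 against the shared control library, with 23 losses and 7 gains. The largest was the CHH at 5825304 on Lu10, at -23.8 points for 5-azacytidine plus heat, -23.2 points for 5-azacytidine and -26.6 points for heat in the authors' deposited tables. At the CG at 8137658 on Lu14 the values were -20.4, -17.0 and -17.5 points in the same order of treatments, from the authors' deposited tables. The CG at 6960089 on Lu13, 1897 bp upstream of Lus10024541, was higher by 19.2 points for 5-azacytidine plus heat, 15.4 points for 5-azacytidine and 21.1 points for heat in the authors' deposited tables. At the CG at 8137673 on Lu14 the combined value of 15.3 points stood below the 20.3 points for 5-azacytidine and the 25.2 points for heat in the authors' deposited tables. The CHG at 8137629 on Lu14 likewise had 12.1 points for 5-azacytidine plus heat, 18.9 points for 5-azacytidine and 18.7 points for heat in the authors' deposited tables. The CHH at 17561093 on Lu7, 4289 bp downstream of the start of Lus10003996, the SPO11 family gene of meiotic recombination, had -14.9, -13.2 and -10.9 points in the same order, from the authors' deposited tables. No error can be put on these differences between treatments.

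**Figure D5:**
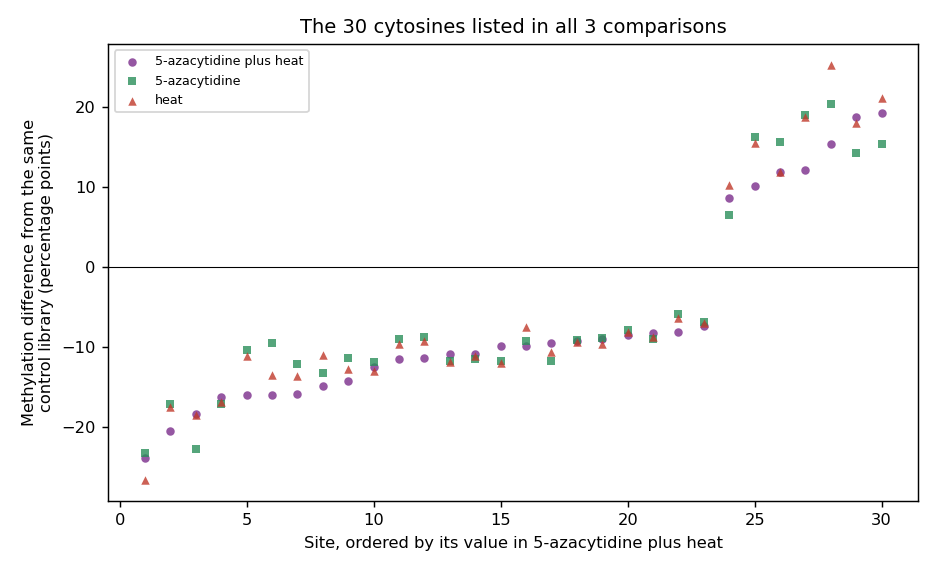
Methylation difference from the control library in percentage points (vertical axis) for the 30 cytosines listed in all 3 comparisons (horizontal axis, ordered by the value for 5-azacytidine plus heat). Circles are 5-azacytidine plus heat, squares 5-azacytidine and triangles heat. All 3 markers lie on the same side of 0 at every site, with 23 sites below and 7 above.

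Genes were also grouped by words in their family descriptions, and a list is set against the 95.3% of all listed sites that were lower and the median of -9.35 points over all listings. In all, 300 sites fell in 1 list or more. Some of them are counted in more than 1 list, so the lists are not independent. Heat shock proteins and chaperones had 11 sites at 5 genes, all lower, with a median of -8.94 points. Of these, 10 were in neither single-treatment table, beside 82.0% over all listed sites. Beside the heat shock protein 70 gene, the list holds Lus10028103 on Lu5, an AHA1-type co-chaperone of HSP90. Its CHH 7754 bp upstream stood at -84.0 points in the authors' deposited table. A small heat shock protein of the alpha-crystallin type, Lus10028577 on Lu14, had, in the authors' deposited table, a CHH loss of -14.0 points at 566 bp upstream. The other 8 sites belong to the copper chaperone described above, with 7 sites, and to a tubulin-specific chaperone. The count and median of this list thus largely describe the copper chaperone gene and not heat shock genes.

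Chromatin and RNA silencing genes had 12 sites at 4 genes, and no gene described as a DNA methyltransferase or demethylase was among them. All 12 sites were CHH losses, beside 97.6% losses over all CHH sites. Of these, 8 sites lay 3572 to 4287 bp upstream of Lus10010175 on Lu9, an RNA helicase of the SDE3 family, which acts in RNA silencing in Arabidopsis, with values of -8.98 to -15.6 points in the authors' deposited table. A pair lay 8111 and 9334 bp downstream of the start of Lus10007172 on Lu7, a helicase of the SWR1 complex that places the histone variant H2A.Z, at -59.6 and -42.8 points in the authors' deposited table. Lus10001729 on Lu15, a histone lysine methyltransferase of the SU(VAR)3-9 family, had 1 CHH at -8.61 points in the authors' deposited table.

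The replication, repair and recombination list had 15 sites at 3 genes, 13 of them lower. Its 2 gains, a CHH at 18.4 points and a CG at 13.7 points in the authors' deposited tables, both belong to the 10 sites of the SPO11 family gene. The list's largest value was a CHH 753 bp downstream of the start of Lus10015736 on Lu4, with an HNH endonuclease domain, at -76.5 points for 5-azacytidine plus heat and -92.3 points for heat in the authors' deposited tables. Transcription factors had 18 sites at 11 genes, 17 of them lower, with a median of -10.5 points. Besides GTE1, large losses were found 1664 bp upstream of Lus10008010, a MYB factor on Lu7, at -73.8 points, and 713 bp upstream of Lus10019788, a CCAAT/enhancer-binding protein on Lu6, at -61.3 points, both in the authors' deposited table. The one gain, 6.70 points in the authors' deposited table, lay near the TCP13 gene Lus10032984 on Lu4, and close to a loss of -7.31 points.

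Cell wall genes, which shape the fibres flax is grown for, had 20 sites at 9 genes, with a median of -11.6 points. All 20 were CHH losses, beside 97.6% losses over all CHH sites. The lowest was the -84.6 points 8091 bp downstream of the start of Lus10003782, a polygalacturonase, which cuts pectin, on Lu13 in the authors' deposited table. Lus10003787 on Lu7, a cinnamyl alcohol dehydrogenase of lignin synthesis, had -24.9 points and Lus10023775 on Lu10, a pectinesterase, had -23.0 points in the authors' deposited table. The hormone list had 10 sites at 3 genes, 9 of them lower. Its gain was a CHH 4019 bp upstream of Lus10037443, an auxin-responsive protein on Lu14, at 18.7 points in the authors' deposited table.

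Protein kinases and phosphatases made up the list with the most sites, 60 at 14 genes, of which 55 were lower. In runs lay 29 of the 60, beside 31.9% over all listed sites. Of the 29, 13 belong to Lus10008540 alone, so this count rests on a few loci. Redox enzymes and dehydrogenases had 37 sites at 9 genes with 35 losses, and vesicle traffic and cytoskeleton genes had 26 sites at 5 genes with 25 losses, 19 of these sites at the soluble NSF attachment protein gene. All sites were losses for transport (29 sites at 11 genes), for transcription machinery, RNA processing and translation (25 sites at 11 genes) and for lipid and carbon metabolism (22 sites at 10 genes). Protein turnover had 28 sites at 14 genes with 27 losses. The transposable element list had 1 site, a CHH 961 bp downstream of the start of Lus10007402 on Lu7, a plant transposase, at -54.6 points in the authors' deposited table. The lists ranged from 86.7% to 100% lower, beside 95.3% for all listed sites.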

How the data were processed

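Per the submitters' processing notes, Trimmomatic, FastQC, BWA, MethylDackel and methylKit were used. Settings, versions and the genome build are not given in the sources used here. For each cytosine the authors deposited a p-value and a q-value from 1 treated library set against 1 control library. Methylation differences are deposited scores in percentage points, taken here as treated minus control, as methylKit writes them. The files do not state the sign, and the other coding would swap every gain and loss. Of the 9 tables, the 3 of 5-azacytidine plus heat were described and the others served for matching. Each row spans 1 bp. The largest q-value was 0.0499 and the smallest difference 5.01 points, so limits of 0.05 and 5 points were inferred. Read depth, coverage and methylation levels per library are unknown here, so the precision of a single value is not known. Whether positions count from 0 or 1 is not stated.

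Gene columns of the CG table of 5-azacytidine plus heat repeat those of another table and were left aside. A gene was taken for its sites from the same cytosine in another table (29) or from lying between sites of 1 gene (31), and 41 got none. Genes, distances and family descriptions are as deposited; exon, intron and untranslated region classes were not analysed here, and 8 gene identifiers that carry more than 1 name were named by position. The 14 gene lists match words in descriptions and were corrected after these were read. Sites and genes were named by rule: the 10 runs and 10 genes with the most sites, the 5 extremes per context among sites absent from both single-treatment tables, up to 10 sites per context shared by all 3 comparisons, the 3 largest per list, sites of opposite sign, and the 10 smallest q-values. Genes with sites within 2 kb, the Lu1 end, the runs at 19049404 on Lu2 and 11078318 on Lu15, the genes in neither single-treatment table and other members named in lists were picked with their values in view. The members and lists were chosen with earlier results of these data known. Alternatives tried were a stricter q-value, a stricter difference, joined strands, other run definitions, other distances, other matching and a common p-value limit. Python 3.11.15, pandas 2.3.3, scipy 1.17.1 and matplotlib 3.10.9 were used, and the grouping of sites into runs was tested on simulated positions.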

Additional observations from a re-analysis of the deposited data

How the results depend on the processing

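Leaving out the largest run, and joining the strands of a CG or CHG, left all 10 shares and medians within their intervals. With q-values below 0.001 (112 sites), gains were 41.9% of CG and 5.26% of CHH sites, CHH made up 67.9% of the listings with a median of 12.2 points, 25% of sites lay in runs, 36% lay within 2 kb of a start and 46.4% were absent from both single-treatment tables. With differences of at least 10 points (540 sites), gains were 3.87% of CHH sites, CHH made up 81.3% of the listings, the medians were 15.9 points in CG and 13.4 points in CHH, 14.6% lay in runs, 22.3% within 2 kb and 79.3% were absent from both. A common p-value limit, chosen after seeing the data, gave 81% CHH with a median of 10.4 points, 20.6% in runs, 22.1% within 2 kb and 72.3% absent from both. In these stricter settings runs were formed again from the sites that remained, so the share in runs can fall by construction. The share in runs was 18.0% with gaps up to 50 bp, 54.9% with gaps up to 300 bp, 12.3% for runs of at least 5 sites and 26.6% for CHH sites alone. Within 1 kb of a start lay 8.30% and within 5 kb 38.2%. Allowing a match within 100 bp, 58.3% were absent from both. Matching within 1 bp or in any context, and leaving the CG table out of the distances, kept each value within its interval. Of the lower shares of the 14 gene lists, 6 moved with the stricter q-value and 2 with the stricter difference, all towards 100% except kinases and phosphatases, with 75% of 8 sites. The other lists that moved with the stricter q-value kept only 1 to 3 sites each. The heat shock, chromatin and RNA silencing, hormone and transposable element lists kept no site at that limit. Losses stayed in the majority in every context under each setting where gains were counted by context. The cause of the shifts was not tested, apart from settings that by construction keep fewer or other sites. No paired analysis was possible because each group is 1 library. Depth is unknown, so no value carries an error of its own, and sites outside the authors' limits were not analysed here.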

Other observations

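At 1 cytosine the sign differed between treatments. The CHH at 12308731 on Lu9, 7396 bp downstream of the start of Lus10011702, an ATL42-related E3 ubiquitin ligase gene, was at -8.47 points for 5-azacytidine plus heat and at 11.0 points for 5-azacytidine alone in the authors' deposited tables, and it was not in the heat table. All 11 sites of this gene in the combined treatment were losses, of -5.01 to -10.0 points in the authors' deposited tables.

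On Lu7, CG sites at 6511243 and 6511250 were both among the 10 smallest q-values. They stood at -16.1 and -19.0 points for 5-azacytidine plus heat, against -11.2 and -22.2 points for heat alone, in the authors' deposited tables, and neither was in the 5-azacytidine table. Of the 10 smallest q-values, 8 belong to sites shared with heat alone, 1 to a site in all 3 comparisons, and 1 to a site in neither single-treatment table, the CG at 8137654 on Lu14 at -14.5 points in the authors' deposited table.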
